A study of Homo sapiens with 4 samples.

Results

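TRAIL and death receptor genes encode the machinery by which a signal from outside a cell can start apoptosis. The ligand TRAIL (TNFSF10) binds the receptors TRAIL-R1 (TNFRSF10A) and TRAIL-R2 (TNFRSF10B), whose cytoplasmic death domains recruit the adaptor FADD. FADD in turn brings in the initiator caspases 8 and 10, which activate each other by proximity, while c-FLIP (CFLAR) joins the same complex and limits that activation. TNFRSF10C lacks a death domain and TNFRSF10D carries a truncated one, so both are regarded as decoys, and FAS is a separate death receptor that uses the same adaptor and caspases. Lung cancer cells commonly carry TRAIL receptors and vary widely in their response to the ligand.

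Members were all probe sets that the platform annotation pairs with 1 of these 10 gene symbols alone. This gave 43 of the 54675 probe sets of the array, and the 10 genes stood among 19775 named genes. CFLAR had 14 probe sets, FAS 5, TNFRSF10B, TNFRSF10C and CASP10 4 each, TNFSF10, TNFRSF10A and CASP8 3 each, TNFRSF10D 2 and FADD 1. Another 2 probe sets list TNFRSF10C beside a second symbol, with signals of 27.0 to 72.9 and of 14.9 to 63.7, and were not used.

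RNA came from PC14, an established human non-small-cell lung cancer line, sorted by flow cytometry into 4 subpopulations: E-cadherin-low CD133-high, E-cadherin-high CD133-high, E-cadherin-low CD133-low and E-cadherin-high CD133-low cells. E-cadherin is the adhesion protein of epithelial junctions, and CD133 is a surface protein used to mark stem-like cancer cells. All 4 derive from this single line, were untreated as far as the labels state, and, where CD133 was sorted, were gated on green fluorescence from a lentiviral reporter under the P1 promoter of the CD133 gene rather than on the protein. The labels call E-cadherin-high cells epithelial and E-cadherin-low cells mesenchymal in type. Each subpopulation was measured on 1 Affymetrix array, so no difference below has a replicate check. An additive fit of both markers, with 1 residual degree of freedom, is given among the alternatives.

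The deposited signals are linear and had been scaled to the same trimmed mean, 500.1, on each array. Without detection calls, the 50th percentile of each array, a signal of 53.7 to 60.3, served as a floor, and lower values were set to it before ratios were taken. CDH1, the E-cadherin gene, read 347.0 and 527.8 in E-cadherin-low against 5548 and 3546 in E-cadherin-high cells, while PROM1, the CD133 gene, was under the floor in every subpopulation. The 3' to 5' signal ratio of actin was 1.78 on the E-cadherin-low CD133-high array and 1.53 to 1.59 on the others. Of 10 markers of lung epithelial cancer cells, 8 or 9 lay above the floor on each array, with a summed signal of 15868 and 17000 in E-cadherin-low and of 32479 and 32754 in E-cadherin-high cells. The list includes CDH1 itself, so part of this difference follows from the sort. EPCAM (3760 to 12326) and KRT18 (7605 to 15306) were the largest terms on every array. Of 12 markers of other cell types, 4 or 5 lay above the floor, with a summed signal of 16853 to 30885, most of it from the fibrillar collagen COL3A1 (15938 to 29221). The leukocyte gene PTPRC read 345.6 to 1246, the endothelial marker PECAM1 120.0 to 173.5 and the globin gene HBB 80.5 to 131.0, all above the floor on all 4 arrays. The T cell gene CD3E was above it on 1 array (62.5), and the defining markers CD14, MS4A1, VWF, CDH5, ALB, GFAP and MYH7 were under the floor throughout. COL3A1 and PTPRC are given again beside the ratios of TNFSF10.

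Of the 10 members, 7 lay above the floor on all 4 arrays by their brightest probe set. TNFRSF10C and CASP10 lay above it on 2 arrays each, and FAS on none. At the level of probe sets, 24 of 43 were above the floor on every array, 5 on some and 14 on none.

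**Figure D1:**
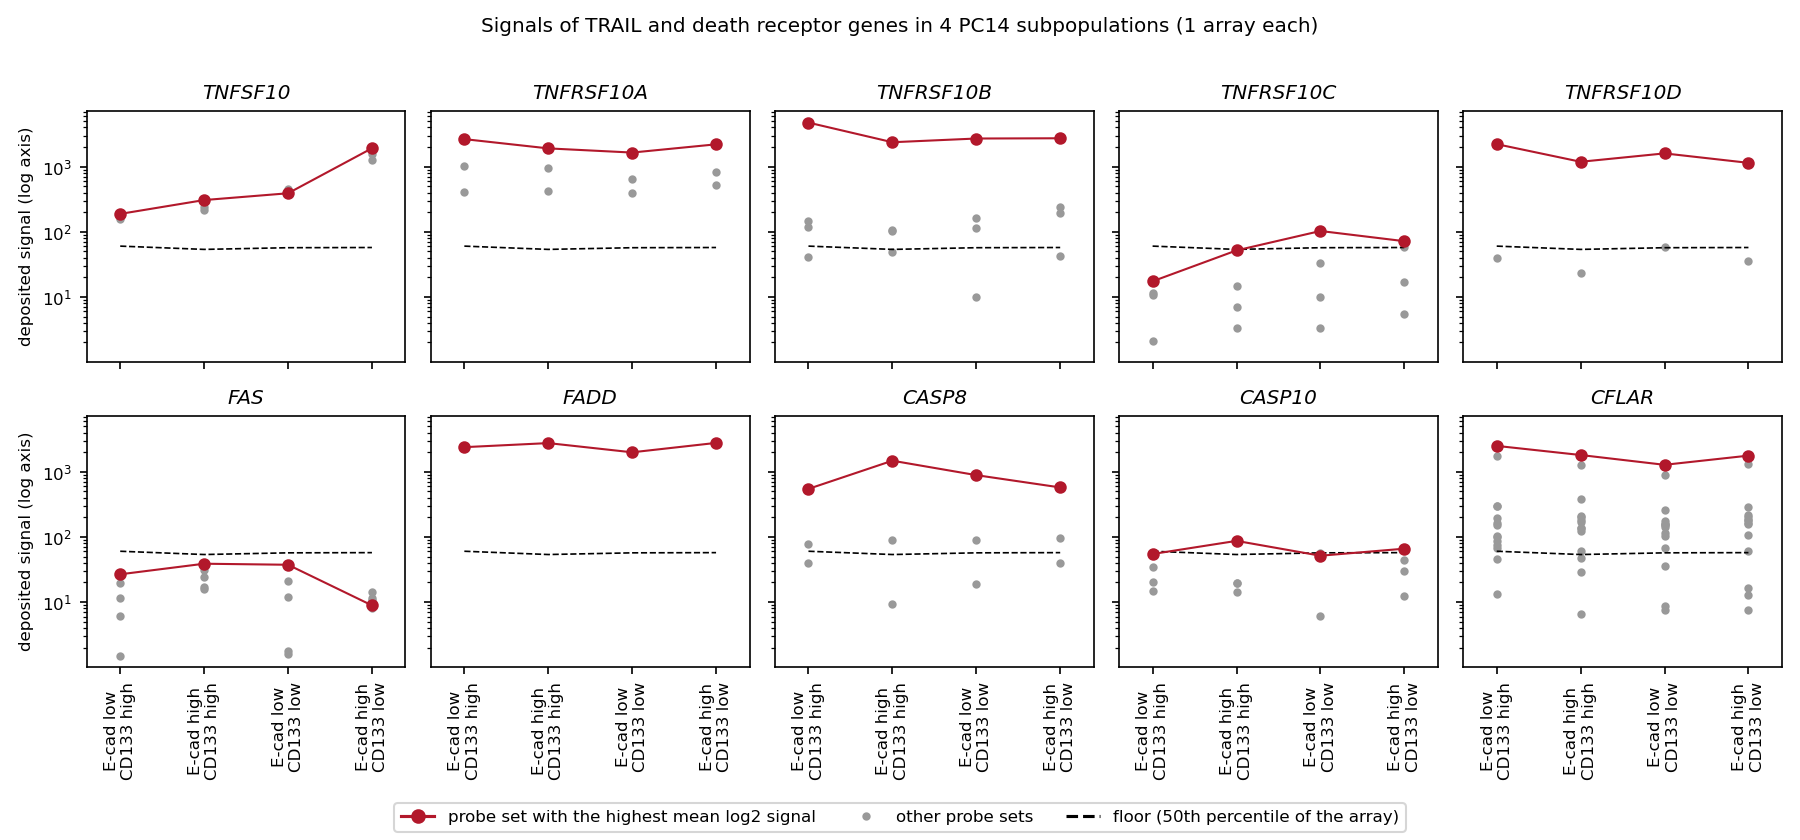
Deposited signal (log axis) of each probe set of the 10 genes in the 4 PC14 subpopulations, with 1 array each. Red points joined by a line are the brightest probe set of a gene by mean log2 signal, grey points the other probe sets and the dashed line the floor of each array. TNFSF10 spans 188.3 to 1913 by its brightest probe set, FAS lies below the floor throughout, and the other genes above the floor on all arrays span less than 3-fold.

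TNFSF10, the ligand gene, was the member that varied most. It had its highest signal in E-cadherin-high CD133-low cells and its lowest in E-cadherin-low CD133-high cells, a 10.2-fold range. By its brightest probe set it read 188.3 in E-cadherin-low CD133-high cells, 307.1 in E-cadherin-high CD133-high cells, 390.3 in E-cadherin-low CD133-low cells and 1913 in E-cadherin-high CD133-low cells. The second probe set read 158.6, 239.5, 450.0 and 1542 in the same order of subpopulations. The third read 168.4, 216.6, 380.3 and 1270. All 3 probe sets therefore put the subpopulations in the same order, with the 2 CD133-high arrays lowest. The suffix of the brightest marks possible cross-hybridisation, and that of the third marks it as matching several transcripts. Only the second is unmarked.

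In CD133-high over CD133-low cells the log2 ratio of TNFSF10 was -1.05 among E-cadherin-low and -2.64 among E-cadherin-high cells by the brightest probe set. Over the 3 probe sets it ran from -1.50 to -1.05 among E-cadherin-low cells and from -2.69 to -2.55 among E-cadherin-high cells. In E-cadherin-low over E-cadherin-high cells it was -0.71 among CD133-high and -2.29 among CD133-low cells, with probe sets from -0.71 to -0.36 and from -2.29 to -1.74. Of these 4 ratios, the smallest in size is thus that of the E-cadherin sort among CD133-high cells, which stayed under 2-fold by all 3 probe sets. On a bulk array of sorted cells, fewer cells with the transcript and less transcript per cell cannot be told apart. COL3A1 ratios were 0.31 and 0.36 in the 2 CD133 pairs and -0.56 and -0.51 in the 2 E-cadherin pairs, and PTPRC ratios 1.13 and 1.85, and -0.18 and 0.55. The part of these genes and of the actin ratio in the TNFSF10 difference was not tested.

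Among the 7 members above the floor on all arrays, TNFSF10 and CASP8 have the largest ranges, and their RefSeq promoter windows are shown for that reason. Each runs from 250 bases before to 50 bases after the annotated start, 5' to 3' on the strand of the gene, on build GRCh38.p14. TNFSF10 lies on the minus strand at chr3:172523381-172523680 and CASP8 on the plus strand at chr2:201233213-201233512. RefSeq windows for the 10 members numbered 12, and the first listed for TNFSF10 and for CASP8 is shown. Any further window of either gene is not shown. Capitals mark matches on either strand to any of 4 motifs. These were the forkhead motif TGTTTAC, the GC box GGGCGG, the interferon regulatory factor core AANNGAAA and the TATA box TATAAA.
TNFSF10: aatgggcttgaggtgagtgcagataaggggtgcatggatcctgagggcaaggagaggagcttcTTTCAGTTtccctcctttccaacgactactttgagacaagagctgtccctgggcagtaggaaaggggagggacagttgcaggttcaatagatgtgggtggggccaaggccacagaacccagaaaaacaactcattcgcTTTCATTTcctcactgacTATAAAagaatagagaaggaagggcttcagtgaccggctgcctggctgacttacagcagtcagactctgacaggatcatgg
CASP8: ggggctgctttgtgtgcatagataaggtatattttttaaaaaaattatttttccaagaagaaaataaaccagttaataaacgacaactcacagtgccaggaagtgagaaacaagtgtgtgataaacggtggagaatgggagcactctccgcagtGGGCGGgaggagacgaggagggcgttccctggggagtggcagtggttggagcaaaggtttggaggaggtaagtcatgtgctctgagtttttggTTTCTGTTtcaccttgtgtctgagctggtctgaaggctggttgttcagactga
Positions are counted from 1 at the 5' end of each window. The TNFSF10 window matched the interferon regulatory factor core at 64 to 71 and at 202 to 209 and the TATA motif at 220 to 225. The CASP8 window matched the GC box at 155 to 160 and the interferon regulatory factor core at 248 to 255. No 2 of these matches overlap. Neither window held the forkhead motif. Of 35116 RefSeq promoter windows of this length, 22.8% held the interferon regulatory factor core, 45.0% the GC box, 11.5% the TATA motif and 3.42% the forkhead motif. Such a match is a description of the letters and not of binding. The G and C content was 51.0% in the TNFSF10 window and 46.3% in the CASP8 window, against a median of 58.7% over all windows.

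The 4 TRAIL receptor genes lie next to each other on chromosome 8, in the order TNFRSF10B, TNFRSF10C, TNFRSF10D and TNFRSF10A among protein-coding genes of the RefSeq annotation. Those for TRAIL-R1, TRAIL-R2 and the decoy TNFRSF10D were above the floor on every array, and by the brightest probe set each had its highest signal in E-cadherin-low CD133-high cells, the subpopulation with the lowest TNFSF10. Of the 4 other probe sets of TRAIL-R1 and TRAIL-R2 above the floor on all arrays, 1 was also highest there and 3 were highest in E-cadherin-high CD133-low cells. The actin ratio of 1.78 belongs to the E-cadherin-low CD133-high array, and its part in these differences was not tested.

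TNFRSF10A encodes 1 of the 2 TRAIL receptors with a complete death domain. The signal was 2645 in E-cadherin-low CD133-high, 1907 in E-cadherin-high CD133-high, 1645 in E-cadherin-low CD133-low and 2202 in E-cadherin-high CD133-low cells. Its range over the 4 arrays was 1.61-fold. The CD133 log2 ratio was 0.69 among E-cadherin-low and -0.21 among E-cadherin-high cells, and the E-cadherin ratio 0.47 among CD133-high and -0.42 among CD133-low cells. By this probe set the signs differ between the pairs in both comparisons. Its other 2 probe sets gave CD133 ratios of 0.69 and 0.07 among E-cadherin-low cells and of 0.16 and -0.31 among E-cadherin-high cells, the first of them positive in both pairs. They gave E-cadherin ratios of 0.14 and -0.05 among CD133-high cells and of -0.39 and -0.43 among CD133-low cells.

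TNFRSF10B encodes the other TRAIL receptor with a complete death domain. The signal was 4744 in E-cadherin-low CD133-high, 2370 in E-cadherin-high CD133-high, 2703 in E-cadherin-low CD133-low and 2727 in E-cadherin-high CD133-low cells. The first value stands apart from the other 3, which lie within 2370 to 2727. The E-cadherin ratio was 2.0-fold among CD133-high cells, at the edge of the 2-fold threshold, and -0.01 on the log2 scale among CD133-low cells. It fell under 2-fold with equal array medians (log2 0.83) and as the mean over probe sets (log2 0.35). CD133 ratios were 0.81 among E-cadherin-low and -0.20 among E-cadherin-high cells.

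The other TRAIL-R2 probe sets did not give the same picture. A pair of them, whose suffix marks possible cross-hybridisation, read 102.2 to 240.5 and 105.9 to 195.9 and were both highest in E-cadherin-high CD133-low cells. Their CD133 ratios among E-cadherin-high cells were -1.23 and -0.89. Over the 3 probe sets above the floor on all arrays, the E-cadherin ratio among CD133-high cells was positive in each, from 0.19 to 1.0, and the ratio among CD133-low cells negative in each, from -0.78 to -0.01. The remaining probe set lay below the floor throughout.

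TNFRSF10D, the decoy with a truncated death domain, read 2215 in E-cadherin-low CD133-high, 1188 in E-cadherin-high CD133-high, 1598 in E-cadherin-low CD133-low and 1144 in E-cadherin-high CD133-low cells. Both E-cadherin-low arrays lay above both E-cadherin-high arrays, with log2 ratios of 0.90 among CD133-high and 0.48 among CD133-low cells. Neither reached 2-fold. CD133 ratios were 0.47 and 0.05 among E-cadherin-low and E-cadherin-high cells. This rests on 1 probe set, since the other one, at 23.5 to 57.5, lay above the floor on 1 array only.

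The decoy TNFRSF10C was near or below the floor. By its brightest probe set, E-cadherin-low cells read 17.4 when CD133-high and 102.9 when CD133-low, and E-cadherin-high cells 51.8 when CD133-high and 71.8 when CD133-low. Both CD133-high values were under the floor. As bounds, the CD133-high signal was at least 1.71-fold lower among E-cadherin-low cells and at least 1.34-fold lower among E-cadherin-high cells. Of the other 3 probe sets 2 were under the floor throughout, and the third read 58.5 in E-cadherin-high CD133-low cells and 10.1 to 14.5 elsewhere.

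FAS, the receptor for FAS ligand, was not measurable above the floor. Its 5 probe sets read 1.5 to 38.8 over all arrays, so no ratio is given for any pair. FASLG, the ligand gene, read 22.8 to 32.9 by its brightest probe set and was likewise below the floor everywhere. A signal under the floor does not show that a transcript is absent.

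FADD, the adaptor between receptor and caspase, was nearly level. It read 2387 in E-cadherin-low CD133-high, 2756 in E-cadherin-high CD133-high, 1990 in E-cadherin-low CD133-low and 2775 in E-cadherin-high CD133-low cells. Both E-cadherin-low arrays read below both E-cadherin-high arrays, by log2 ratios of -0.21 and -0.48 among CD133-high and CD133-low cells, and the whole range was 1.39-fold. The CD133 ratios were 0.26 and -0.01 among E-cadherin-low and E-cadherin-high cells.

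CASP8, CASP10 and CFLAR are neighbours on chromosome 2, in the order CFLAR, CASP10 and CASP8. CASP8, the main initiator caspase of the pathway, read 546.7 in E-cadherin-low CD133-high, 1479 in E-cadherin-high CD133-high, 888.1 in E-cadherin-low CD133-low and 575.1 in E-cadherin-high CD133-low cells by its brightest probe set. The array of E-cadherin-high CD133-high cells is the high one. The CD133 log2 ratio was -0.70 among E-cadherin-low and 1.36 among E-cadherin-high cells, and the E-cadherin ratio -1.44 among CD133-high and 0.63 among CD133-low cells, so that the direction differed between the pairs of both comparisons. Of all measured genes, 1.59% had ratios of at least 1.5-fold in opposite directions in the 2 CD133 pairs and 2.03% in the 2 E-cadherin pairs. The only other CASP8 probe set above the floor on all arrays read 79.0 to 95.4 and gave ratios of -0.20 to -0.07 in the 4 pairs. The third lay below the floor. The CASP8 difference therefore rests on 1 probe set, whose suffix marks it as matching several transcripts.

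CASP10, the related initiator caspase, stood at the edge of detection. It read 54.7 in E-cadherin-low CD133-high, 87.0 in E-cadherin-high CD133-high, 51.5 in E-cadherin-low CD133-low and 66.0 in E-cadherin-high CD133-low cells. Both E-cadherin-low values lay under the floor. The signal was lower in E-cadherin-low cells by at least 1.44-fold among CD133-high and at least 1.16-fold among CD133-low cells, both bounds. The other 3 probe sets lay below the floor on all arrays.

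CFLAR, whose c-FLIP products compete with caspase 8 for the complex, read 2497 in E-cadherin-low CD133-high, 1809 in E-cadherin-high CD133-high, 1279 in E-cadherin-low CD133-low and 1769 in E-cadherin-high CD133-low cells by its brightest probe set. Its CD133 ratio was 0.96 among E-cadherin-low cells, just under 2-fold, and 0.03 among E-cadherin-high cells. The E-cadherin ratio was 0.47 among CD133-high and -0.47 among CD133-low cells.

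The 14 CFLAR probe sets disagreed among themselves. Of the 11 above the floor on all arrays, 7 had a positive and 4 a negative CD133 ratio among E-cadherin-low cells, from -0.83 to 0.99 with a median of 0.16. The ratio near 1 came from 3 probe sets, the 2 brightest and a dimmer one, with 0.96, 0.95 and 0.99, and the other 8 lay between -0.83 and 0.17. Among E-cadherin-high cells the CD133 ratios ran from -0.58 to 0.79 with a median of -0.01. For the E-cadherin comparison the medians were -0.09 among CD133-high and -0.33 among CD133-low cells. The only one of the 11 not marked as shared read 75.0, 61.1, 68.8 and 61.7 in E-cadherin-low CD133-high, E-cadherin-high CD133-high, E-cadherin-low CD133-low and E-cadherin-high CD133-low cells, with ratios from -0.01 to 0.30. CFLAR makes long and short splice forms, and the annotation used here does not say which form each probe set reads.

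**Figure D2:**
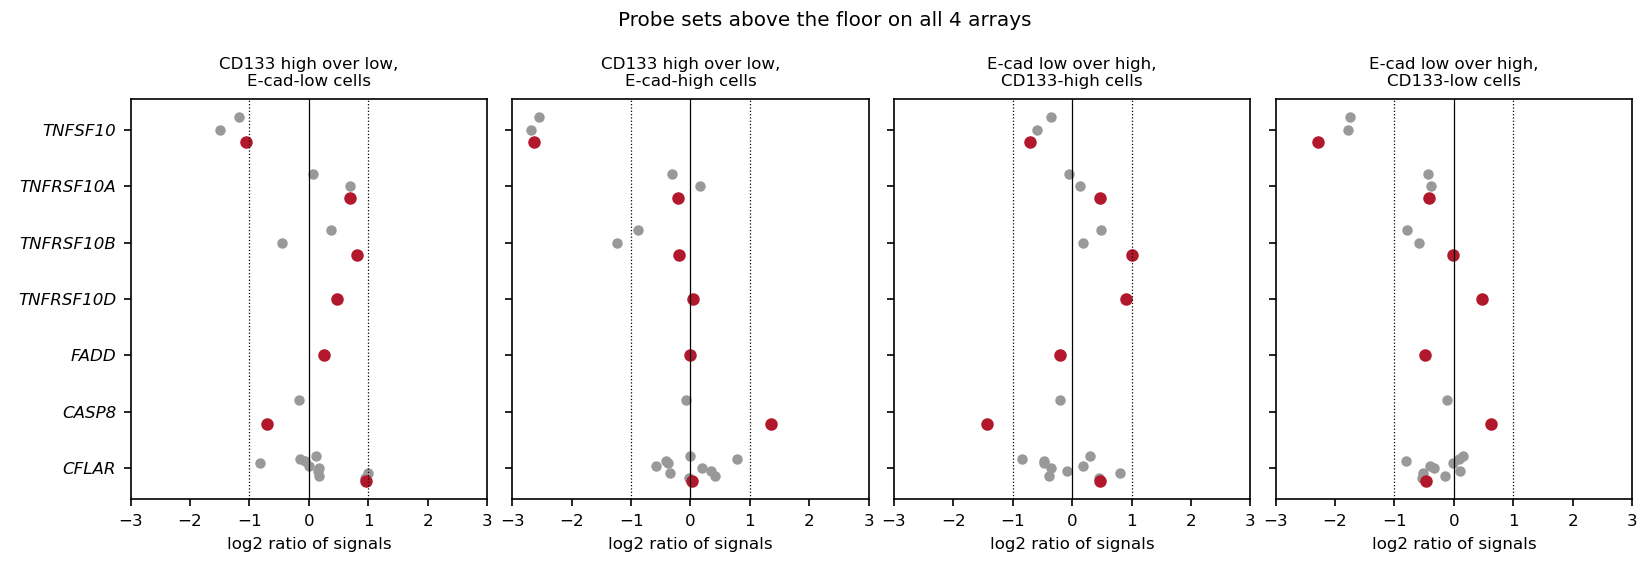
Log2 ratio of signals in the 4 pairs of arrays (x axis) for the 24 probe sets above the floor on all arrays, by gene. Red points are the brightest probe set of a gene, grey points the others, and dotted lines mark 2-fold. The 3 TNFSF10 probe sets lie below 0 in every pair, whereas those of TNFRSF10A, TNFRSF10B, CASP8 and CFLAR spread to both sides of 0 in at least 1 pair.

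Counted over the family, CD133-high cells had 1 member at least 2-fold lower in both pairs, TNFSF10, and 0 at least 2-fold higher, of 9 measured members. Across all genes measured on at least 1 array, 3.57% met this rule in either direction, 2.45% higher and 1.12% lower. By probe set, 3 of 29 measured met it, all of TNFSF10, against 3.01% of all probe sets. In the E-cadherin comparison 0 of 9 members and 0 of 29 probe sets met the rule, against 1.02% of genes (0.476% higher and 0.54% lower) and 0.85% of probe sets. With so few members, counts of 1 and 0 lie near what the background share would give.

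In single pairs, 1 of 8 measured members was past 2-fold for CD133 among E-cadherin-low cells (TNFSF10, lower), where 13.1% of genes were. Among E-cadherin-high cells 2 of 9 were (TNFSF10 lower, CASP8 higher), where 8.8% of genes were. For E-cadherin, 2 of 8 were past it among CD133-high cells (TNFRSF10B higher, at the threshold, and CASP8 lower), against 6.74% of genes, and 1 of 9 among CD133-low cells (TNFSF10, lower), against 5.89%. The members' median log2 ratio was 0.37 and -0.01 in the CD133 pairs and 0.13 and -0.21 in the E-cadherin pairs, over those measured in each pair. Over all genes measured on at least 1 array, in that pair or not, the medians were 0.06 and -0.05, and 0.05 and -0.01. On that same basis the members' medians were 0.26 and -0.01, and 0.17 and -0.21.

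**Figure D3:**
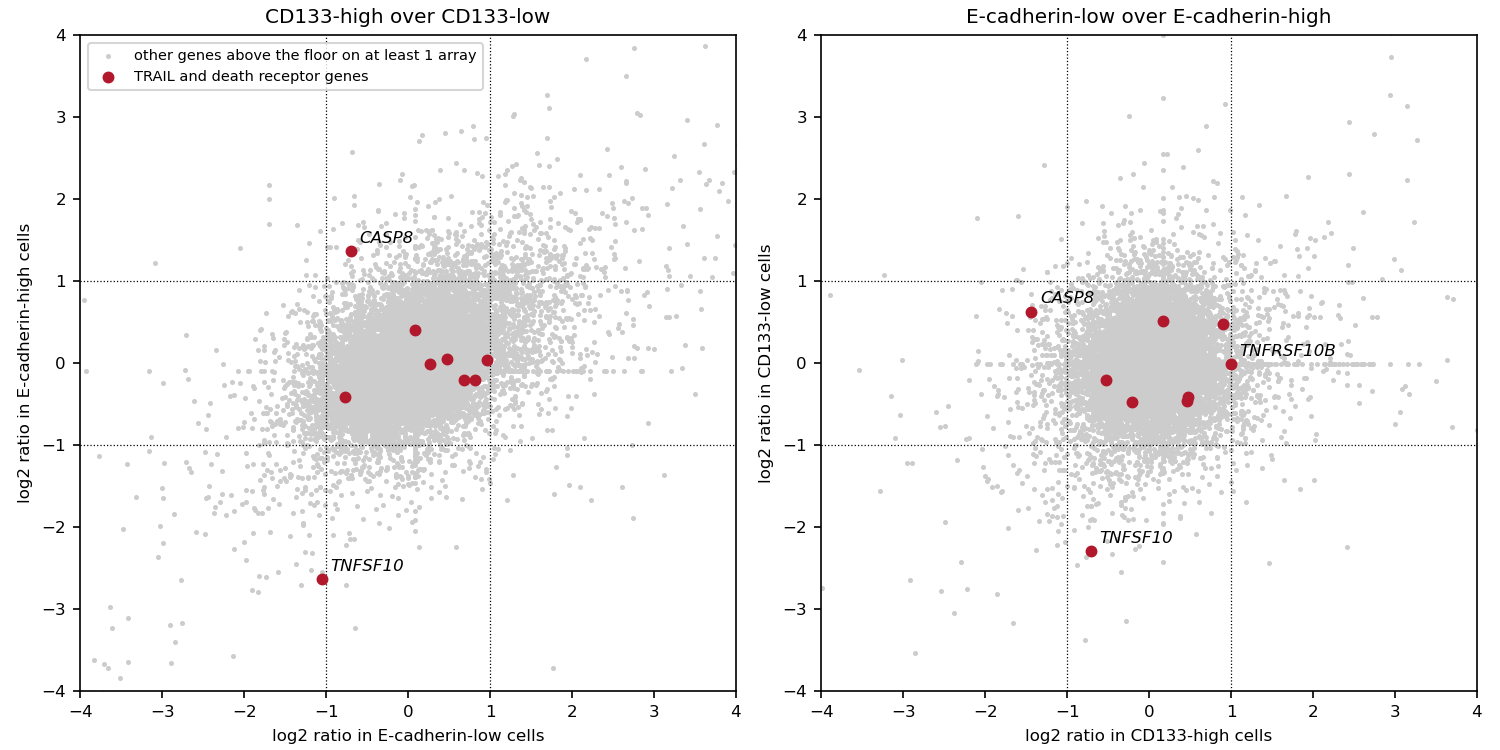
Log2 ratio of each gene in one pair of arrays (x axis) against the other (y axis), for CD133-high over CD133-low (left) and E-cadherin-low over E-cadherin-high cells (right). Red points are the 9 measured members, grey points the other genes, and dotted lines mark 2-fold; 32 genes on the left and 14 on the right lie beyond a log2 ratio of 4 and are not all drawn. TNFSF10 lies past 2-fold in both CD133 pairs, and CASP8 has opposite signs in the pairs of either comparison.

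Genes with a pattern over the 4 arrays like that of the members were found by the distance between centred log2 signals among 14082 other genes, for members with a range of at least 2-fold. Of all measured genes, 24.2% had such a range. Nearest to TNFSF10 was ELF3, an epithelial transcription factor, at a distance of 0.63, with 59.4 in E-cadherin-low CD133-high, 50.6 in E-cadherin-high CD133-high, 94.3 in E-cadherin-low CD133-low and 506.5 in E-cadherin-high CD133-low cells. PCGF5, a Polycomb group protein, followed at 0.77, and GPRC5A, an orphan receptor, at 1.02. Both also had their highest signal in E-cadherin-high CD133-low cells, at 425.9 and 238.6, and 2 genes came within a distance of 1. ELF3 and GPRC5A were above the floor on 2 arrays each and PCGF5 on 3, so these distances rest in part on the floor. Nearest to CASP8 were CST4, DPYSL5 and DNASE1L2 at 0.16 to 0.18, where 1667 genes came within 1. Nearest to TNFRSF10B were SOWAHC, STAU2 and ISG15 at 0.03 to 0.08, where 8617 genes did. With 4 arrays such likeness is easily met by genes of small range.

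The wider pathway was described with 7 lists of 120 genes, of which 106 had a probe set of their own and 90 were measured. In the CD133 comparison 1 of these 90 was at least 2-fold higher in both pairs and 0 lower, and in the E-cadherin comparison 0 were higher and 0 lower. The one counted was RRM2B, a p53-induced ribonucleotide reductase subunit, which read 2754 (CD133-high) and 1344 (CD133-low) in the E-cadherin-low state and 1875 (CD133-high) and 760.8 (CD133-low) in the E-cadherin-high state, log2 ratios of 1.04 and 1.30. The genes named in the next paragraphs were chosen after their values were seen, apart from RRM2B, TNFRSF11B, BID and XIAP.

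Of the other TNF family ligands, 10 were measured and 0 counted in either comparison, with median CD133 ratios of 0.08 and 0.02. LTB, a lymphotoxin subunit, came closest with bounds of 1.08 and 0.99. TNFSF9, a T cell costimulatory ligand, read 552.2 in E-cadherin-low CD133-high, 738.8 in E-cadherin-high CD133-high, 276.1 in E-cadherin-low CD133-low and 699.8 in E-cadherin-high CD133-low cells. It was low on 1 array, where TNFSF10 was not lowest.

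Of the other TNF receptor family members, 14 were measured and 0 counted. TNFRSF11B, osteoprotegerin, a soluble receptor that can bind TRAIL, lay below the floor on all arrays at 9.7 to 26.8. TNFRSF21, a death domain receptor also called DR6, read 791.7 (CD133-high) and 1097 (CD133-low) in the E-cadherin-low state and 478.1 (CD133-high) and 1218 (CD133-low) in the E-cadherin-high state. Both ratios were negative, -0.47 and -1.35, and 1 passed 2-fold. The receptor for TWEAK, TNFRSF12A, had CD133 ratios of 0.52 and -0.72 in those states.

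Of the adaptors and ubiquitin ligases around the receptors, 16 were measured and 0 counted, and their median ratio was between -0.19 and -0.10 in the 4 pairs. TRADD, the adaptor of TNF receptor 1, read 490.1 to 524.4 on the 4 arrays. RBCK1, a subunit of the linear ubiquitin ligase complex, spanned 1775 to 4371 and was lower in E-cadherin-low cells with log2 ratios of -1.10 among CD133-high and -0.63 among CD133-low cells.

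Downstream of the initiator caspases, 10 genes of executioner caspases, the apoptosome and their inhibitors were measured and 0 counted. CASP9, the initiator caspase of the mitochondrial route, read 2022 in E-cadherin-low CD133-high, 989.6 in E-cadherin-high CD133-high, 1738 in E-cadherin-low CD133-low and 2153 in E-cadherin-high CD133-low cells. Its low reading was on the array where CASP8 was high by its brightest probe set. For both genes this is 1 probe set whose suffix marks it as matching several transcripts. DFFB, the nuclease that cuts DNA in apoptosis, had CD133 ratios of -1.33 and -0.89 among E-cadherin-low and E-cadherin-high cells. BID, the BH3 protein that caspase 8 cleaves to engage mitochondria, read 1654 to 2020, and of 14 measured BCL2 family genes 0 were counted.

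XIAP, an inhibitor of caspases, read 3316 in E-cadherin-low CD133-high, 3918 in E-cadherin-high CD133-high, 5307 in E-cadherin-low CD133-low and 656.2 in E-cadherin-high CD133-low cells by its brightest probe set. The last array is the low one, with a CD133 ratio of 2.58 among E-cadherin-high cells and of -0.68 among E-cadherin-low cells, and an E-cadherin ratio of -0.24 among CD133-high and 3.02 among CD133-low cells. A second probe set, at 488.6 to 1317, gave a CD133 ratio of 0.85 and an E-cadherin ratio of 1.43 for the same 2 pairs that include that array. The other 5 probe sets above the floor on all arrays had CD133 ratios of -0.27 to 0.05 among E-cadherin-high cells.

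**Figure D4:**
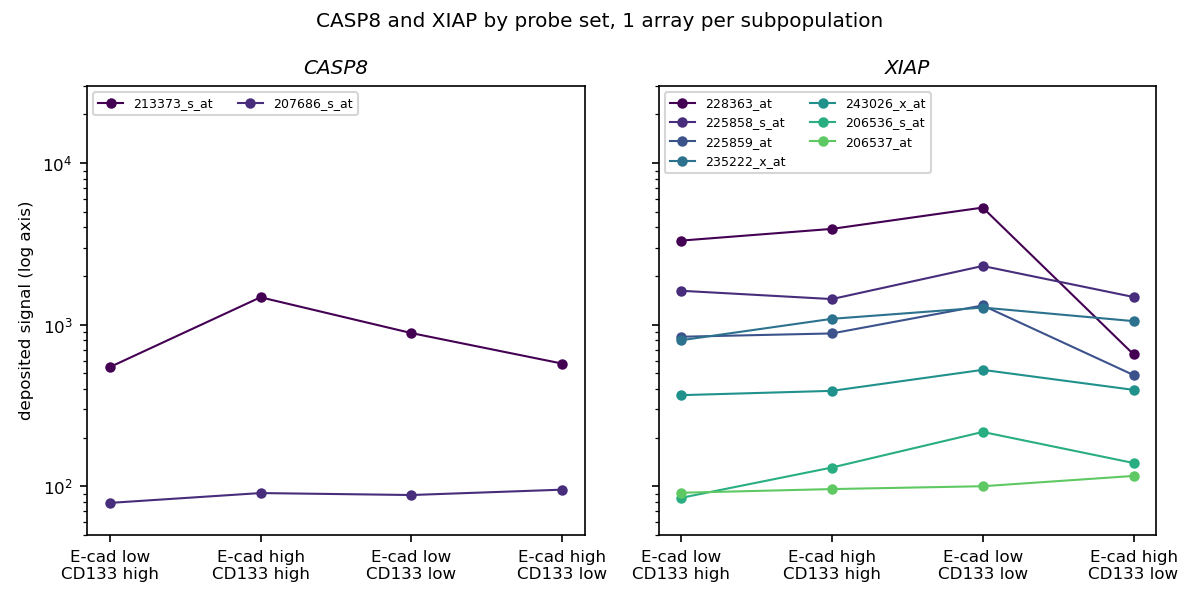
Deposited signal (log axis) of the probe sets of CASP8 (left) and XIAP (right) that lie above the floor on all arrays, in the 4 PC14 subpopulations with 1 array each. The brightest probe set of each gene changes more between arrays than the other CASP8 probe set (79.0 to 95.4) and every other XIAP probe set shown.

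Among known regulators of the TRAIL and death receptor genes 13 were measured and 0 counted. FOXO1, a forkhead factor that can induce TNFSF10, read 216.3 (CD133-high) and 341.8 (CD133-low) in the E-cadherin-low state and 256.9 (CD133-high) and 443.9 (CD133-low) in the E-cadherin-high state, ratios of -0.66 and -0.79. FOXO3, the related factor, had ratios of 0.32 and 0.32. IRF9, a component of the interferon response factor ISGF3, was on the other side, with 286.2 (CD133-high) and 173.9 (CD133-low) in the E-cadherin-low state and 341.2 (CD133-high) and 135.8 (CD133-low) in the E-cadherin-high state, ratios of 0.72 and 1.33. DDIT3, a stress factor that can induce TNFRSF10B, read 1134 in E-cadherin-high CD133-low cells and 402.4 to 501.3 in the others.

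Of 13 measured p53 target genes, 1 was counted, RRM2B. CDKN1A, the cell cycle inhibitor p21, was higher in CD133-high cells by log2 ratios of 2.34 among E-cadherin-low and 0.83 among E-cadherin-high cells. GDF15, a stress-induced cytokine, had ratios of 1.39 and -0.49, and MDM2, the ubiquitin ligase for p53, 0.13 and 0.19. The median CD133 ratio of the list was 0.42 among E-cadherin-low and -0.35 among E-cadherin-high cells, against 0.06 and -0.05 over all genes.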

How the data were processed

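Gene expression was measured on 4 one-colour Affymetrix arrays, 1 per sorted PC14 subpopulation. The deposited values are linear intensities, 1 for each probe set. Per the submitters' processing notes MAS5 was used; its version was not given in the sources used here. Those deposited intensity values had been scaled within each array by the authors, as their equal trimmed means show (2% left out at either end). Arrays have no read depth, and their number limits the precision.

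Gene names came from the platform annotation: 41097 probe sets had 1 symbol, 1801 had several and 11777 were unnamed here. By gene ID 41043 matched RefSeq (GRCh38.p14), and 0 symbols differed. Where a gene had several probe sets, the brightest by mean log2 signal stood for it. Signals under the 50th percentile of an array, controls left out, were set to that floor, and 14083 genes and 26707 probe sets lay above it on at least 1 array. Log2 ratios were taken within 2 pairs of arrays per sorted marker, and a gene was counted at 2-fold or more in the same direction in both. A ratio with 1 array at the floor is a bound. The members, lists and named genes (all members, genes counted from each list, 6 genes fixed by name and the 3 nearest patterns) were chosen with earlier results of these data known; FASLG, TNFRSF11B, BID and XIAP were fixed by name, and TNFRSF6B had no probe set with 1 symbol. 1 further gene fixed by name is not reported here. Genes named outside that rule are marked in the text. Alternatives were other scalings, floors and thresholds, the mean over probe sets, leaving out shared probe sets and an additive limma fit with a signal trend and 1 residual degree of freedom. The procedure was also run on simulated data, with purely additive effects larger than 2-fold planted in genes well above the floor. Its outcome is not given here, and it does not cover smaller effects, planted effects that differ between pairs or signals near the floor. Promoter sequences came from RefSeq (GRCh38.p14). Python 3.11.15, pandas 2.3.3, numpy 2.4.6, matplotlib 3.10.9, R 4.3.3 and limma 3.58.1 were used.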

Additional observations from a re-analysis of the deposited data

Results flagged for a closer look

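CASP8 had log2 ratios of at least 1.5-fold in opposite directions in the 2 pairs of both comparisons: -0.70 among E-cadherin-low and 1.36 among E-cadherin-high cells for CD133, and -1.44 among CD133-high and 0.63 among CD133-low cells for E-cadherin. The pairs of the 2 comparisons share the same 4 arrays, so these are 1 pattern seen from 2 sides. Of all measured genes 1.59% showed opposite directions of this size for CD133 and 2.03% for E-cadherin.

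XIAP did so for CD133 by its brightest probe set, with -0.68 among E-cadherin-low and 2.58 among E-cadherin-high cells. Its other probe sets above the floor gave -0.27 to 0.05 among E-cadherin-high cells, except 1 at 0.85. The search covered the members, RRM2B and the pathway genes fixed by name. GDF15, outside it, had E-cadherin ratios of 0.66 among CD133-high and -1.23 among CD133-low cells. The 1.5-fold size used to look for opposite directions was chosen after the values were seen. With 1 array per subpopulation, none of these differences between pairs was tested.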

How the results depend on the processing

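TNFSF10 was counted lower in CD133-high cells under every scaling and floor, at 1.5-fold, without shared probe sets and as the mean over probe sets. Its ratios were -2.69 to -2.54 among E-cadherin-high and -1.50 to -1.05 among E-cadherin-low cells. Every floor setting left them at -2.64 and -1.05, and a gene counted at 2-fold is also counted at 1.5-fold. The floor and 1.5-fold settings are thus no check on this count. At 3-fold, 0 members and 0 probe sets were counted for CD133. The additive limma fit called 0 members for CD133 at an adjusted threshold of 0.05 (TNFSF10 adjusted p 0.0759; 1 of 9 members under 0.05 unadjusted) and 0 for E-cadherin (smallest adjusted p 0.445; 2 of 9 unadjusted); by probe set it called 3 for CD133, all of TNFSF10, with adjusted p-values down to 0.00247, and 0 for E-cadherin (4 of 29 unadjusted). Over all genes it called 2.05% for CD133 and 0.149% for E-cadherin, and over all probe sets 4.89% and 0.52%. The only residual of this fit is the difference between the 2 pairs of a comparison, so its p-values do not measure spread between replicates. The probe set that stood for TNFSF10 was called in the fit by probe set and not in the fit by gene, which ran over different sets of features. Without a floor 6 member probe sets were counted for CD133 and 1 for E-cadherin, the added ones below the floor on all arrays. Leaving out shared probe sets left 1 probe set counted for CD133. At 1.5-fold, TNFSF10 was also counted for E-cadherin, as 1 member and 2 probe sets. As the mean over probe sets, the CASP8 ratio turned to -0.27 for CD133 among E-cadherin-high and to 0.15 for E-cadherin among CD133-high cells; this mean includes a probe set below the floor. For E-cadherin among CD133-high cells, TNFRSF10B lay under 2-fold with equal array medians (0.83) and as the mean over probe sets (0.35). No paired analysis of replicates was possible because each subpopulation had 1 array and so no replicates to pair. Ratios were taken within arrays matched on the other marker, and the additive fit holds that marker as a term. No array was left out. Members near the floor (TNFRSF10C, CASP10, FAS) are limited by signal over background.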
